A study of Mus musculus with 9 samples.

Results

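Transcripts of 39 imprinted genes were followed across 3 groups of fetal mice from a study of alcohol-induced birth defects. The genes were chosen as a list of imprinted loci by symbol, and every one was found in the expression table, at 40 of its 27095 loci because Peg3 is listed at 2. All fetuses were wild type C57BL/6 (C57BL/6J in the study's methods) collected on gestational day 17 (GD17). Control dams received lactated Ringer's solution by injection on GD7, and exposed dams received ethanol (EtOH) at 2.9 g/kg on the same day. Exposed fetuses were sorted by the presence (affected) or absence (unaffected) of visible ocular, craniofacial or cortical defects, and each of the 3 groups held 3 animals. RNA sequencing of the brain gave 1 FPKM value (fragments mapped to a transcript, scaled to its length and to the size of the library) for each locus and group, in which the 3 animals are already combined. No spread between animals can therefore be given for any value here, no test could be made from these group values, and every difference below is a description of 3 group values. The study determined the sex of its fetuses by PCR for the Y chromosome, but the sources used here do not say what sex the sequenced fetuses were or which of them shared a dam.

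An imprinted gene is transcribed mainly from the allele inherited from 1 parent, because a mark of DNA methylation placed in the egg or the sperm survives the reprogramming of the early embryo. Imprinted genes lie in domains in which a methylated control region, and often a long noncoding RNA, sets the activity of several neighbours. Many of them govern fetal growth, the placenta and the brain, paternally expressed genes often promoting growth and maternally expressed genes often restraining it. The FPKM values sum the transcripts of both alleles, so that the allele in use was not measured. In bulk tissue a lower level can mean fewer cells of a type or less RNA per cell, which cannot be told apart here.

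The labels name the tissue fetal brain, and the study's methods name the cortex. Cortical markers were present at high levels in every group: Neurod6 was at 409 FPKM in control samples, 378 in unaffected and 416 in affected samples, and Tbr1 at 75.7, 62.1 and 98.3. The 8 hindbrain and cerebellar marker loci summed to 1.29, 0.86 and 1.20 FPKM, with Hoxa4 and Hoxa5 at 0 in every group. The sex-linked transcripts set the groups apart. Xist, the RNA that silences one X chromosome in females, was at 9.24 FPKM in control samples, 0.021 in unaffected and 10.3 in affected samples. The Y-linked gene Eif2s3y was at 6.56, 21.01 and 0.037 FPKM, and Ddx3y at 2.66, 8.40 and 0.0091. In every comparison between the exposed groups, and in part in those with control, sex and condition therefore cannot be told apart.

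The members spanned more than 4 orders of magnitude in level. Of the 40 loci, 33 had a mean over the 3 groups of at least 1 FPKM and were compared, which left 10 loci classed as maternally expressed, 20 classed as paternally expressed and 3 (Igf2r, Grb10 and Gnas) classed as tissue-dependent in their expressed allele. Whether genes of the other classes also depend on the tissue was not examined. Nnat was the most abundant member, at 2831 FPKM in control samples, 3531 in unaffected and 2626 in affected samples, and encodes neuronatin, a small membrane protein of the endoplasmic reticulum in neurons. Gnas, which encodes the stimulatory G protein alpha subunit, followed at 973, 997 and 989 FPKM. Below these came Snrpn, Ndn, Rian and H19, all with means above 100 FPKM. The 7 loci under 1 FPKM were Rtl1, Calcr, Kcnq1, Kcnq1ot1, Ascl2, Phlda2 and Mirg. Ascl2 and Phlda2, which act chiefly in the placenta, were at 0.046, 0.075 and 0.065 FPKM and at 0.17, 0.28 and 0.066 FPKM. Calcr, the calcitonin receptor, was at 0.21, 0.30 and 0.17 FPKM. Rtl1, a placental gene derived from a retrotransposon, was at 0.077, 0.061 and 0.088 FPKM. The potassium channel gene Kcnq1 was at 0.27, 0.37 and 0.41 FPKM, and Kcnq1ot1, the paternal antisense RNA within it, at 0.42, 0.40 and 0.39. No difference is read from these 6 low loci, and Mirg is given below with its neighbours.

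**Figure D1:**
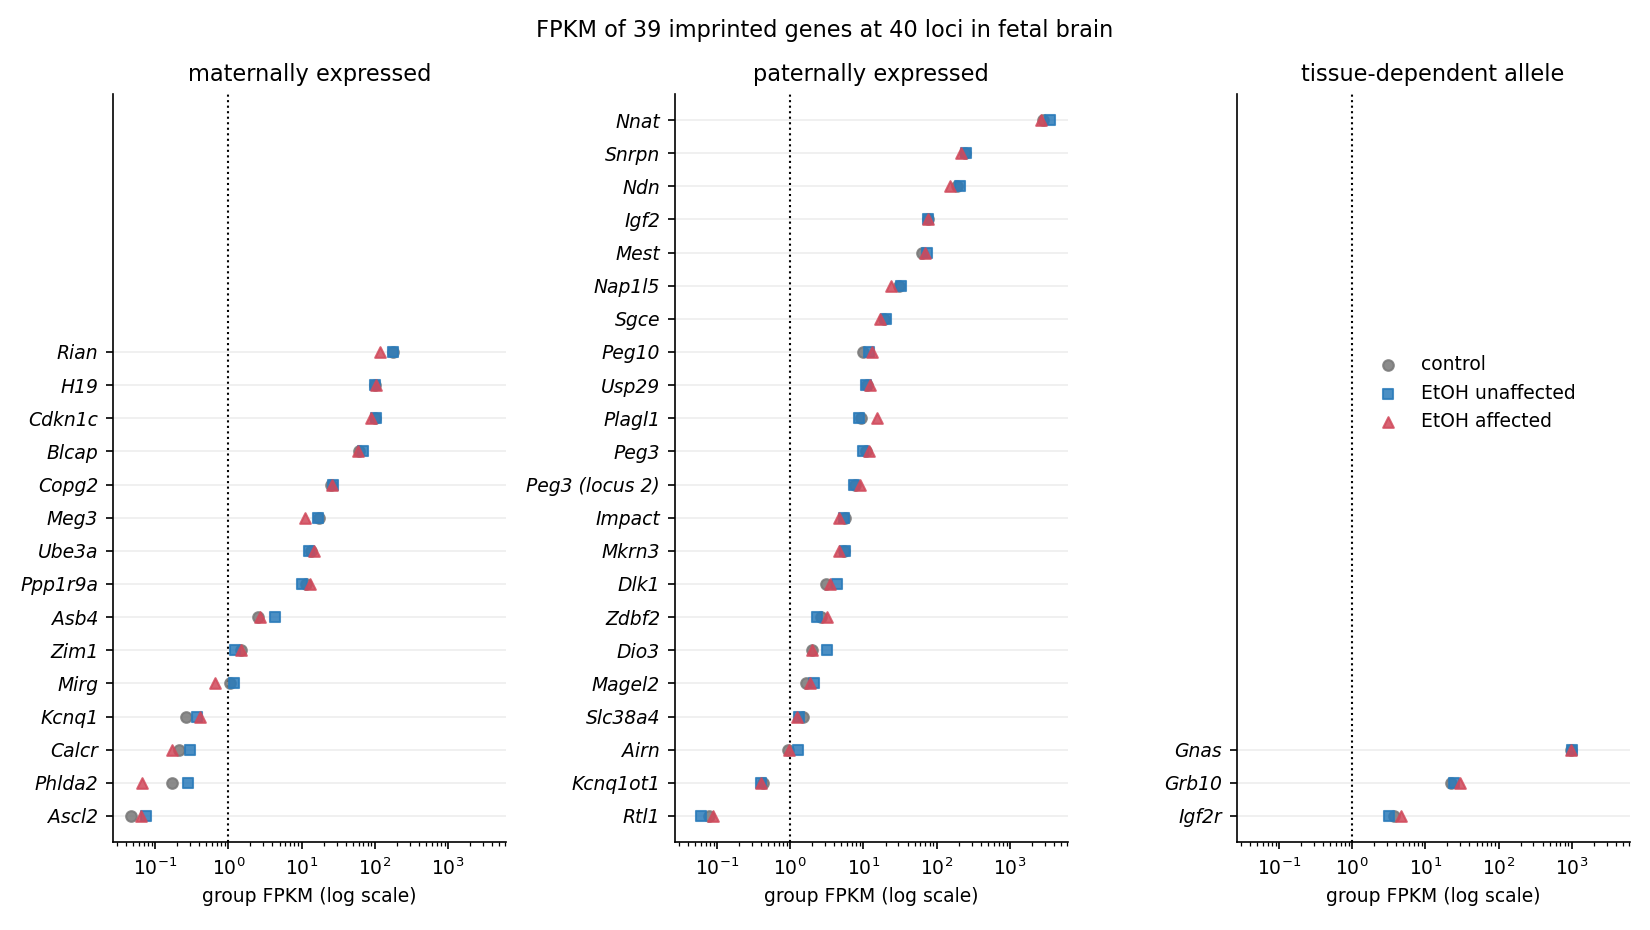
Group FPKM on a log axis for each of the 39 imprinted genes (40 loci), in panels of maternally expressed, paternally expressed and tissue-dependent genes ordered by mean level. Grey circles are control, blue squares EtOH unaffected and red triangles EtOH affected samples, each 1 value for 3 animals, and the dotted line is 1 FPKM. Levels run from under 0.1 FPKM for Ascl2 and Rtl1 to 2626 to 3531 FPKM for Nnat, and the groups lie close together for most genes.

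The differences among the groups were small for most members and were large for a few. They are given as log2 differences of FPKM after adding 0.1, and a difference was counted from 0.32 on that scale, at which the higher level is 25% above the lower one. Of the 33 loci, 17 stayed within this size in all 3 comparisons and 16 passed it in at least 1. In unaffected against control samples, 5 loci (15.2%) were higher by that size, namely Dlk1, Dio3, Airn, Asb4 and Magel2, against 5.45% of the 15548 loci compared. All 5 had means under 5 FPKM, where the range of all loci is wider, and none was counted among members of at least 5 FPKM. Airn was under 1 FPKM in both other groups and passed the filter only through the unaffected group, so that nothing is read from its place in this count. With 1 FPKM added in place of 0.1 the count was 3. None was lower, against 6.8% of all loci. In affected against control samples, 4 loci (12.1%) were higher, Plagl1, Grb10, Igf2r and Peg10, against 12.1% of all loci, and 3 (9.09%) were lower, Meg3, Rian and Nap1l5, against 11.3%. The shares in that comparison were close to those of all loci. In affected against unaffected samples, 4 loci (12.1%) were higher, Plagl1, Igf2r, Zdbf2 and Ppp1r9a, against 20.3% of all loci. In the same comparison 9 loci (27.3%) were lower, Dlk1, Meg3, Rian, Dio3, Airn, Nnat, Asb4, Nap1l5 and Ndn, against 18.1%. Those 9 include 4 of the 5 that were higher in unaffected than in control samples, and the 2 comparisons share the unaffected group. Airn is 1 of these 4, and nothing is read from its place in either count.

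The medians of the members lay near 0. The median log2 difference was 0.03 in unaffected against control, 0.03 in affected against control and -0.06 in affected against unaffected samples, where all loci had medians of 0.01, 0.02 and 0.01. Maternally and paternally expressed loci had medians of -0.01 and 0.06 in the first comparison, 0.00 and 0.04 in the second, and -0.12 and -0.19 in the third. The direction in which the 2 classes differed was not constant, and in each comparison it turned under some alternative. With loci under 1 FPKM let in, the maternal minus paternal gap of -0.07 in the first comparison became 0.01 and that of 0.07 in the third became -0.11. In the second the gap of -0.03 became 0.06 at a mean of at least 5 FPKM, 0.05 with the length trend removed and 0.01 without the Dlk1-Dio3 loci. The 3 tissue-dependent genes had medians of 0.03, 0.34 and 0.30.

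**Figure D2:**
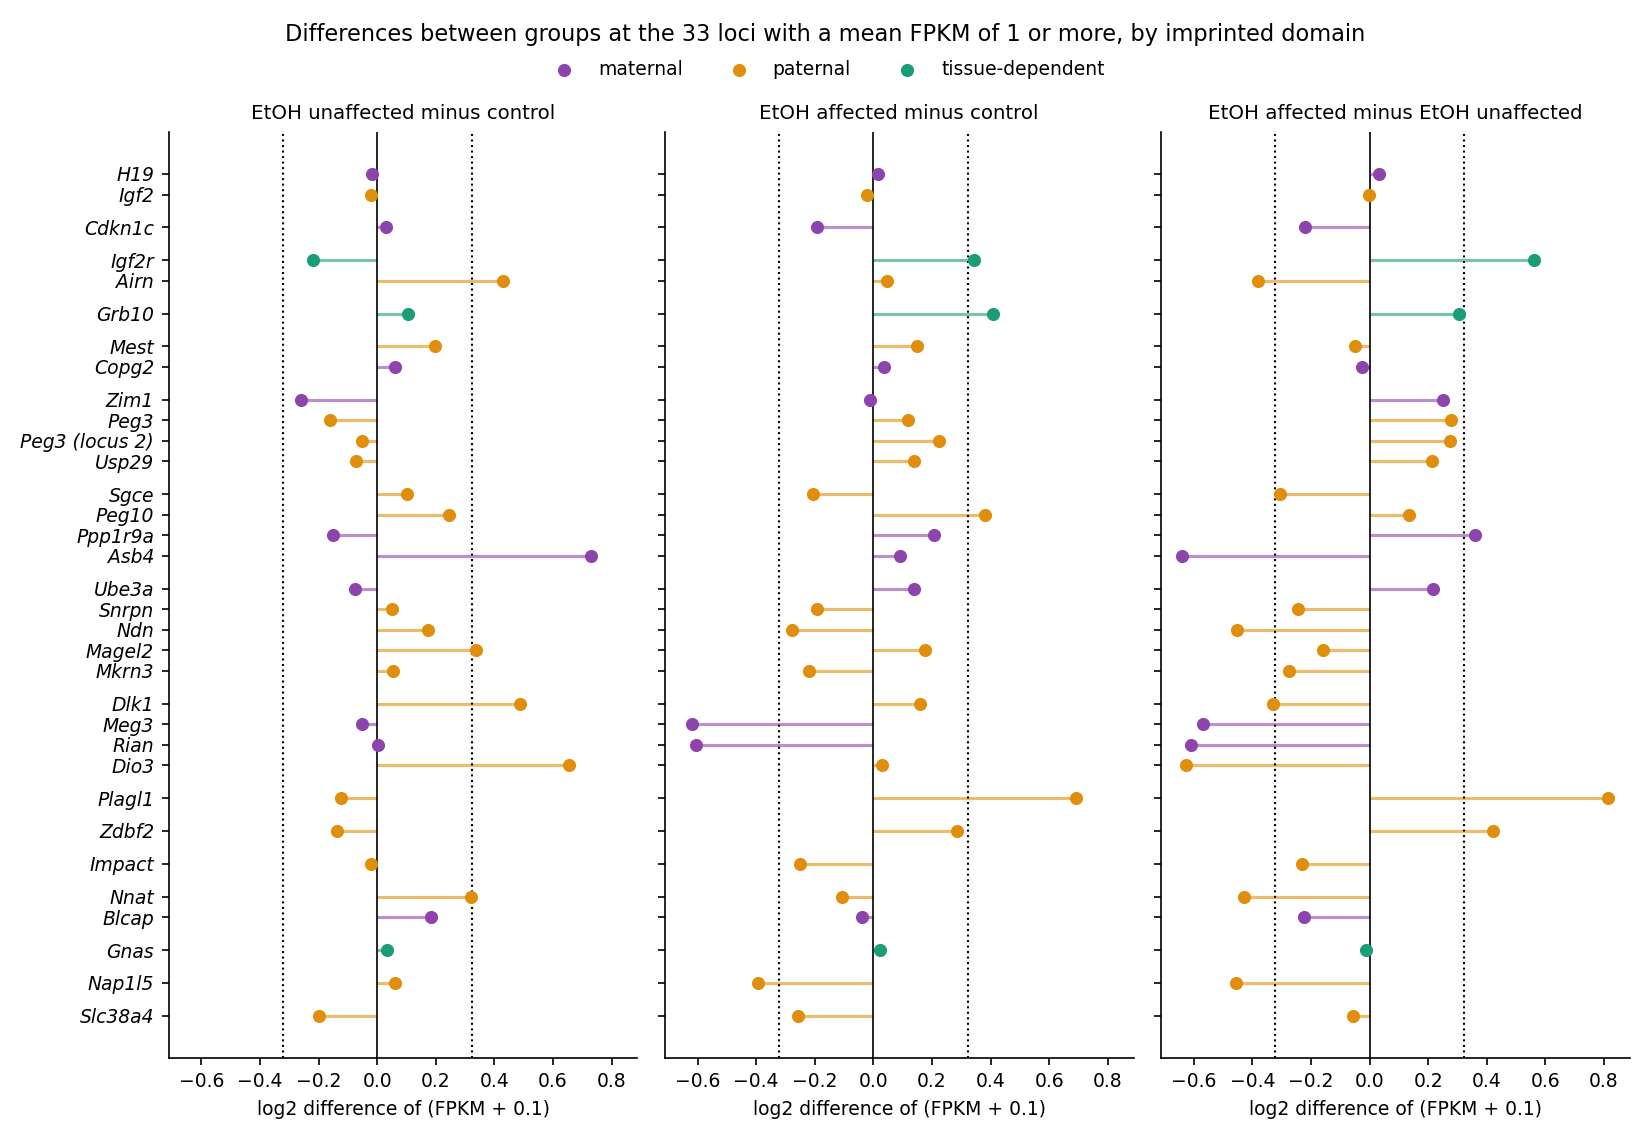
Log2 difference of (FPKM + 0.1) for the 33 imprinted loci with a mean of at least 1 FPKM, grouped by domain, in each of the 3 comparisons. Purple marks maternally expressed, orange paternally expressed and green tissue-dependent genes, and dotted lines mark 0.32 either side of 0. Meg3 and Rian stand at -0.62 and -0.61 in affected against control samples, while Plagl1 stands at 0.69.

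With no spread between animals, the range of all loci of like level served as a yardstick. Of the 33 members, 5 lay above the central 90% of such loci in unaffected against control samples (Asb4, Dio3, Dlk1, Nnat and Peg10), and none lay below. In affected against control samples 2 lay above (Plagl1 and Grb10) and 2 below (Meg3 and Rian). In affected against unaffected samples Plagl1 lay above, and Meg3, Rian, Asb4 and Dio3 lay below. Rian there (-0.608 against a 5th percentile of -0.604) was barely outside. So was Peg10 in unaffected against control samples (0.2460 against a 95th percentile of 0.2415). By construction 10% of all loci lie outside this range, so it says how large a difference was among transcripts of that level and nothing about animals.

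**Figure D3:**
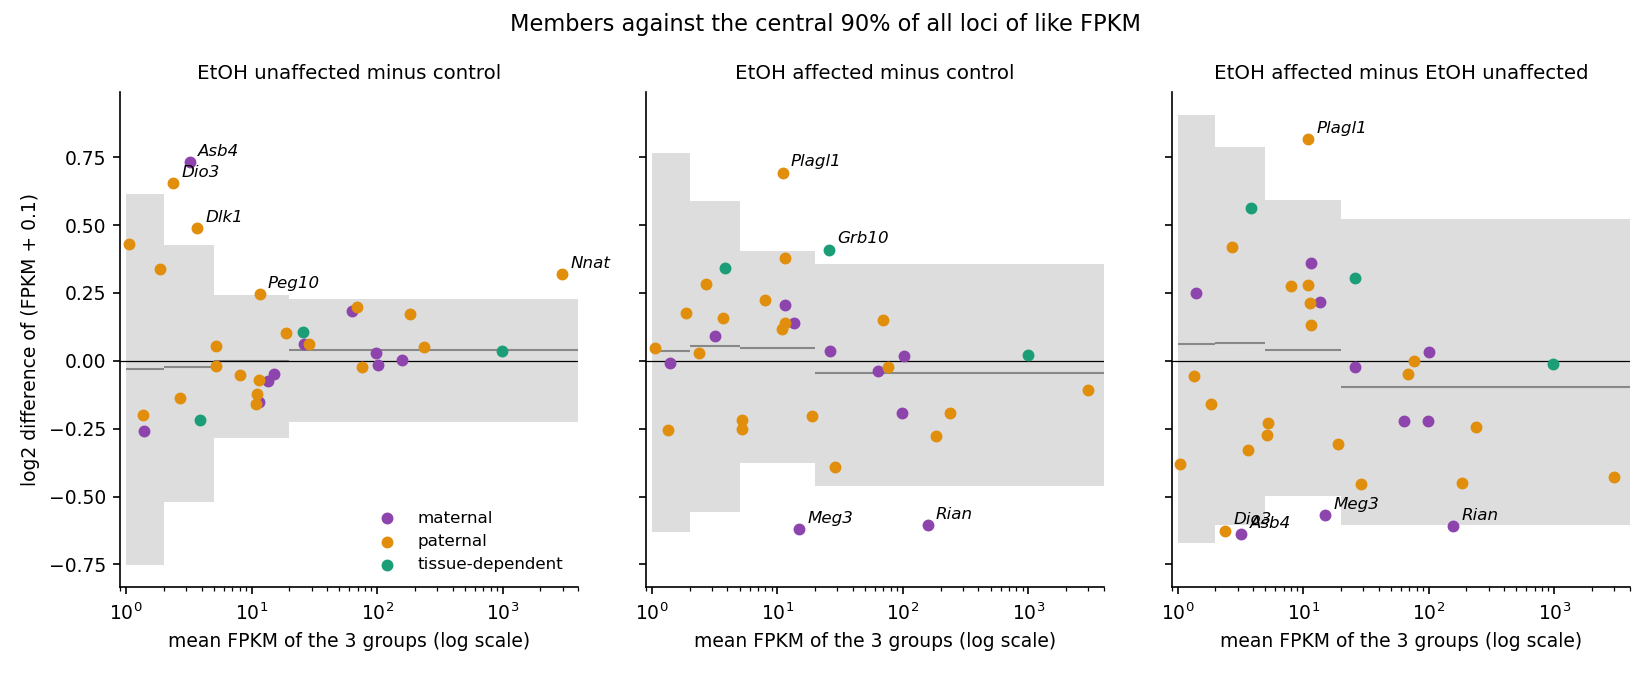
Log2 difference of (FPKM + 0.1) against mean FPKM (log axis) for the 33 imprinted loci in each comparison. Grey boxes span the 5th to the 95th percentile of all loci of like FPKM (1 to 2, 2 to 5, 5 to 20, and 20 or more), with their median as a grey line, and members outside the boxes are named. The grey range is wider in affected against unaffected samples (-0.60 to 0.52 at 20 FPKM or more) than in unaffected against control samples (-0.22 to 0.23).

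The Dlk1-Dio3 domain on chromosome 12 held 3 noncoding RNAs with nearly equal differences. Its paternal chromosome expresses the protein-coding genes Dlk1, Rtl1 and Dio3, and its maternal chromosome expresses the long noncoding RNAs Meg3, Rian and Mirg, which carry small nucleolar RNAs and miRNAs in their introns and exons. Meg3 (chr12:109540996-109571729, plus strand, mm10) was at 17.2 FPKM in control samples, 16.6 in unaffected and 11.2 in affected samples. Rian (chr12:109603945-109661711), joined in the table with the small RNA gene AF357359, was at 177, 177 and 116 FPKM. Mirg (chr12:109734902-109749457) was at 1.07, 1.20 and 0.67 FPKM, with a mean just under the minimum of 1. All 3 noncoding RNAs were lowest in the affected group and nearly level between the other groups. Against control, Meg3 was 0.62 lower on the log2 scale in affected samples, Rian 0.61 and Mirg 0.61, that is 1.54-fold, 1.52-fold and 1.52-fold lower. Against unaffected samples, the differences were -0.57, -0.61 and -0.77. With the length trend removed, those of Meg3 and Rian became -0.46 and -0.48. The ratio of Rian to Meg3 was 10.3 in control samples, 10.7 in unaffected and 10.4 in affected samples, so that both were lower in equal proportion.

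The paternal genes of the domain followed another order. Dlk1 (chr12:109452823-109463336), a membrane ligand related to Notch ligands, was at 3.11 FPKM in control samples, 4.40 in unaffected and 3.48 in affected samples. Dio3 (chr12:110279230-110281097), the deiodinase that inactivates thyroid hormone, was at 1.97, 3.15 and 2.01 FPKM. Both were highest in the unaffected group, by 0.49 and 0.65 (log2) over control, and both lay above the central 90% of loci of like level there. Between affected and control samples the differences were 0.16 for Dlk1 and 0.03 for Dio3. The ratio of Meg3 to Dlk1, which compares a maternal with a paternal transcript of the domain, was 5.54 in control samples, 3.78 in unaffected and 3.21 in affected samples. It was below control in both exposed groups, in the unaffected group with the higher Dlk1 and in the affected group with the lower Meg3. The Dlk1 difference between the exposed groups (-0.33) was just past the size counted, and fell short of it after a trend with transcript length was removed (-0.24).

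**Figure D4:**
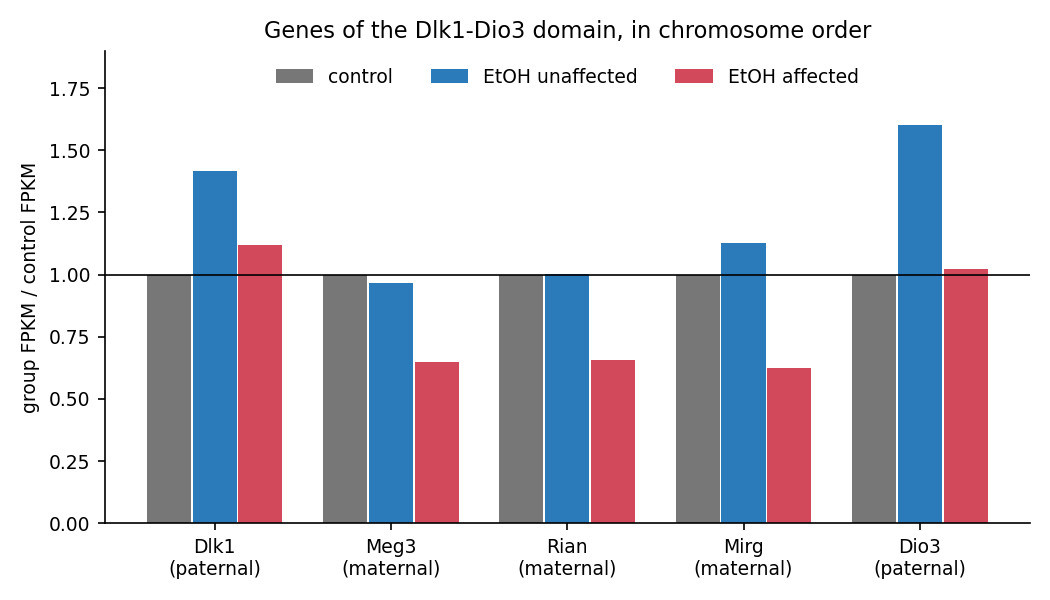
Group FPKM divided by the control FPKM for the Dlk1-Dio3 genes in chromosome order, with grey bars for control, blue for EtOH unaffected and red for EtOH affected samples. Rtl1 (under 0.1 FPKM) is left out. The maternal RNAs Meg3, Rian and Mirg are near control in unaffected samples and lower in affected samples, and the paternal genes Dlk1 and Dio3 are highest in unaffected samples.

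The start of Meg3 is shown because Rian and Mirg lie downstream of it on the same strand and the 3 RNAs had nearly equal differences from control. The window is chr12:109540746-109541045 (GRCm38.p6, plus strand, RefSeq), from 250 bases before to 50 after an annotated start, and the capitals mark the letters TGCCGC read on the opposite strand, a motif that the imprint-keeping protein ZFP57 binds when its CG is methylated.

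Meg3 promoter: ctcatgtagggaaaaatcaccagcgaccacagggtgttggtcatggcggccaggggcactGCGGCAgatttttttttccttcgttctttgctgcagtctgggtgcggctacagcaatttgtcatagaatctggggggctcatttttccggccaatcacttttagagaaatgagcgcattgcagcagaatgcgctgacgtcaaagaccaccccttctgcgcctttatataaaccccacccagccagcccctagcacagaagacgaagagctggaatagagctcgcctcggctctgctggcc

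This window held 13 CG pairs and 1 match, and the window at a second annotated Meg3 start held 1 CG pair and no match. The Rian window held no CG pair and no match, and the Dio3 window held 25 CG pairs and no match. Among all 32851 windows of this kind, searched on both strands, 11.6% held the letters TGCCGC and the median number of CG pairs was 7. Of the members, 32 genes had 51 windows in the table, 13 of these windows held the letters, and their median was 14 CG pairs. No methylation was measured in these samples, and a match describes the sequence only.

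The Meg3 and Mirg loci were joined in the table with the miRNA genes they contain, and these are shown to say what the joined names hold. The Meg3 locus is also joined with Mir1906-2, whose mature sequence the reference places on the X chromosome and which is not shown. For each of the 5 miRNA genes inside them, the mature 3p arm (RefSeq) is shown with its seed, bases 2 to 8, in capitals.

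miR-770-3p: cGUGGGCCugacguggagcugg
miR-369-3p: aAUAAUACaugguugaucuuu
miR-410-3p: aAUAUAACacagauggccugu
miR-412-3p: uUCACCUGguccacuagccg
miR-485-3p: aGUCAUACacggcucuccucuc

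All 9 mature miRNAs of these genes in the reference had different seeds. The first lies in the Meg3 locus, and the rest lie in the Mirg locus. The libraries were not made to capture mature miRNAs, and what part of a joined FPKM value comes from which of its genes cannot be told apart. Of the other 59 loci in the domain, 53 had a name holding Mir, Snord or AF357, the usual marks of small RNAs, and 46 of these were at 0 in every group.

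Plagl1 had the largest difference among the 33 loci compared. It encodes a zinc finger protein that stops the cell cycle and regulates other imprinted genes, and it is expressed from the paternal allele. Plagl1 (chr10:13090788-13131695, plus strand) was at 9.32 FPKM in control samples, 8.56 in unaffected and 15.1 in affected samples. The affected group stood apart from the other 2, by 0.69 (log2) or 1.62-fold over control and by 0.82 or 1.76-fold over unaffected samples. Both differences lay above the central 90% of loci of 5 to 20 FPKM, whose 95th percentiles were 0.40 and 0.59. With the length trend removed they became 0.85 and 1.06, with 452 bases taken as the length of Plagl1, the median over its annotated transcripts. The trend removed was -0.16 and -0.24 at that length, and 0.15 and 0.22 at the 4034 bases of Peg3. Whether the differences grow or shrink therefore depends on the length taken for Plagl1. The window at its start (chr10:13090582-13090881, GRCm38.p6, plus strand, RefSeq) lies inside the annotated gene and is shown because it also holds the ZFP57 letters, in capitals, on the opposite strand.

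Plagl1 promoter: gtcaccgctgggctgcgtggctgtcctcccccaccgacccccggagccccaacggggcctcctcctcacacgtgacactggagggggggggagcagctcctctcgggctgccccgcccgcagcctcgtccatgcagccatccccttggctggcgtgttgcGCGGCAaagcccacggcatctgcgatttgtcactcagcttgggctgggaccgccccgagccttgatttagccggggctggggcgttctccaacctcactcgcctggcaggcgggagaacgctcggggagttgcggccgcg

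It held 26 CG pairs and 1 match. Of the 6 members with the largest differences whose windows were read (Plagl1, Asb4, Dio3, Meg3, Rian and Igf2r), only Plagl1 and Meg3 held the letters, and these 2 differed from control in opposite directions in the affected group.

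Among growth-control genes of the Igf2 system, the ligand was level across the groups. Igf2 (chr7:142650768-142670356), the paternally expressed fetal growth factor, was at 76.9 FPKM in control samples, 75.7 in unaffected and 75.6 in affected samples. H19 (chr7:142575529-142578146), the maternally expressed noncoding RNA that shares its enhancers, was at 101, 99.9 and 102 FPKM. The largest difference between groups for either gene was 0.03 (log2), and the ratio of H19 to Igf2 was 1.32, 1.32 and 1.35. With the length trend removed, Igf2 and H19 became 0.16 and 0.15 in affected against unaffected samples, under the size counted. Igf2r, the receptor that takes up IGF2 for degradation, was at 3.69 FPKM in control samples, 3.15 in unaffected and 4.70 in affected samples. It was lowest in the unaffected and highest in the affected group, with differences from control of -0.22 and 0.34 and of 0.56 between the exposed groups. With 1 FPKM added the difference between affected and control samples became 0.28, under the size counted. All 3 differences lay inside the central 90% of loci of like level. Airn, the paternal antisense RNA that silences Igf2r on that chromosome outside neurons, was at 0.92, 1.28 and 0.96 FPKM. Airn was close to the minimum of 1 FPKM, and with 1 FPKM added its difference of 0.43 in unaffected against control samples became 0.24. The 2 genes overlap by 28354 bases on opposite strands of chromosome 17, and the use of strand in counting was not stated, so that their reads may not be told apart.

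Grb10, an adaptor that dampens insulin and IGF receptor signalling and is paternally expressed in neurons, was at 22.7 FPKM in control samples, 24.4 in unaffected and 30.1 in affected samples. It was 0.41 (log2) or 1.33-fold higher in affected than in control samples, above the central 90% of loci of at least 20 FPKM. Cdkn1c, the maternally expressed cell cycle inhibitor p57, was at 101, 104 and 88.8 FPKM, and its differences stayed between -0.22 and 0.03. Zdbf2, a paternally expressed gene linked to growth and feeding, was at 2.59, 2.35 and 3.18 FPKM. Its difference of 0.42 between the exposed groups became 0.07 after the length trend was removed, and it has the longest transcript among the 33 loci compared.

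The other genes of the IGF pathway included receptors and substrates with the same order of groups as Igf2r. Igf1r, the receptor that signals for IGF1 and IGF2, was at 6.33 FPKM in control samples, 5.25 in unaffected and 8.67 in affected samples. Igf1, the second ligand, was at 3.08, 2.74 and 1.47 FPKM and was lowest in the affected group, by 1.02 (log2) below control. Irs2, a substrate of the insulin and IGF1 receptors, was at 6.24, 5.19 and 8.23 FPKM. Of 14 pathway loci past the filter, 4 were higher and 2 lower by the size counted in affected against control samples (28.6% and 14.3%, against 12.1% and 11.3% of all loci), with a median of 0.21 against 0.02 over all loci. With the length trend removed this median became 0.16, and that in affected against unaffected samples went from 0.25 to 0.15. Levels of single pathway genes are given without that removal. In affected against unaffected samples 6 were higher and 3 lower (42.9% and 21.4%, against 20.3% and 18.1% of all loci). In unaffected against control samples 1 was higher and 1 was lower (7.14% each, against 5.45% and 6.8% of all loci). The lower locus in that comparison, also 1 of those lower in the other 2, was the binding protein gene Igfbp6 at 1.41, 0.99 and 0.73 FPKM, which passed the filter only through the control group, so that its place in these counts is not read. The higher one, the joined locus of Igf2bp1 and Mir3063, was at 1.73, 5.50 and 2.17 FPKM, and what part of it is Igf2bp1 cannot be told apart from the short gene. The pathway's most abundant gene, the binding protein Igfbp2, was at 182, 194 and 169 FPKM.

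The Peg10-Sgce cluster on chromosome 6 held genes that differed from each other. Asb4 (chr6:5383386-5433021), a maternally expressed subunit of an E3 ubiquitin ligase that is known from hypothalamic neurons and blood vessels, was at 2.56 FPKM in control samples, 4.32 in unaffected and 2.74 in affected samples. The unaffected group stood above the other 2, by 0.73 (log2) or 1.66-fold over control and 1.56-fold over affected samples. This was the largest difference of the 33 loci in unaffected against control samples. Peg10, a paternally expressed gene derived from a retrotransposon, was at 9.93, 11.8 and 12.9 FPKM, with 0.25 and 0.38 over control in unaffected and affected samples. The second value became 0.18 after the length trend was removed. Its neighbour Sgce, which encodes epsilon-sarcoglycan and starts beside it on the opposite strand, was at 19.2, 20.6 and 16.6 FPKM. The ratio of Peg10 to Sgce was 0.52 in control samples, 0.57 in unaffected and 0.78 in affected samples. In affected against unaffected samples Peg10 differed by 0.13 and Sgce by -0.31, and with the length trend removed both were lower, at -0.20 and -0.30. Ppp1r9a, the neuronal actin-binding protein neurabin, was at 11.3, 10.2 and 13.1 FPKM, and its 0.36 between the exposed groups became 0.17 after the length trend was removed.

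Of the 4 paternally expressed members in the Prader-Willi region on chromosome 7, 3 were lowest in affected samples, mostly by less than the size counted. Ndn, which encodes necdin, a protein of postmitotic neurons, was at 187 FPKM in control samples, 211 in unaffected and 154 in affected samples. Snrpn, a splicing protein gene joined in the table with Snurf, was at 244, 252 and 213 FPKM. Mkrn3, a ubiquitin ligase that restrains the onset of puberty, was at 5.37, 5.57 and 4.59 FPKM. All 3 were highest in unaffected and lowest in affected samples, with differences from control of -0.28, -0.19 and -0.22 in the affected group, and the only difference of the size counted was that of Ndn between the exposed groups (-0.45). Magel2, a partner of ubiquitin ligases in endosomal recycling, was at 1.63, 2.08 and 1.86 FPKM. Its 0.34 in unaffected against control samples became 0.23 with 1 FPKM added. With the length trend removed, Ndn became -0.43 in affected against control samples. Between the exposed groups Ndn, Mkrn3 and Magel2 then became -0.65, -0.36 and -0.41. Ube3a, the maternally expressed ubiquitin ligase lost in Angelman syndrome, was at 13.4, 12.7 and 14.7 FPKM, lowest in unaffected and highest in affected samples, unlike the other 4 members of the region. Of genes on a further list given below, Ipw was 0.28 lower in affected than in control samples and Peg12, beside Mkrn3, 0.27 higher.

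Nnat differed between the exposed groups by -0.43 (log2) and was 0.32 higher in unaffected than in control samples, just under the size counted. Blcap, whose gene contains Nnat on the opposite strand, was at 61.2, 69.6 and 59.7 FPKM, the same order as Nnat, and the 2 share 2445 bases. Nap1l5, a nucleosome assembly protein gene, was at 30.8 FPKM in control samples, 32.2 in unaffected and 23.5 in affected samples, 0.39 below control and 0.45 below unaffected samples in the affected group. Both of these lay inside the central 90% of loci of like level.

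The remaining members stayed under the size counted throughout. The Peg3 domain on chromosome 7 was lowest in unaffected samples at all 4 of its loci. Peg3, a zinc finger gene with roles in maternal behaviour, was at 10.96, 9.80 and 11.9 FPKM at its first locus and 7.68, 7.41 and 8.98 at the second, which has the same coordinates, so that the split of its reads is uncertain. Usp29 was at 11.2, 10.7 and 12.4 FPKM, and the maternally expressed Zim1 at 1.49, 1.23 and 1.48. They were 0.21 to 0.28 (log2) higher in affected than in unaffected samples, and with the length trend removed the differences became 0.05 at both Peg3 loci, 0.11 for Usp29 and 0.19 for Zim1. Mest, a hydrolase gene of mesoderm, was at 63.4, 72.7 and 70.3 FPKM, and Copg2, a vesicle coat gene that overlaps it by 912 bases on the other strand, at 25.5, 26.6 and 26.1. Impact, a regulator of translation under stress, was at 5.55, 5.47 and 4.65 FPKM, and the amino acid transporter gene Slc38a4 at 1.51, 1.30 and 1.247. The largest difference of Gnas between groups was 0.03.

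The factors that keep imprints were given as a list of 23 genes at 24 loci, of which 21 passed the filter. In affected against control samples 4 were higher and 1 was lower by the size counted (19% and 4.76%, against 12.1% and 11.3% of all loci), and 18 of 21 were above 0, with a median of 0.19 against 0.02 over all loci. In affected against unaffected samples 6 were higher and 1 was lower (28.6% and 4.76%, against 20.3% and 18.1%), and in unaffected against control samples none was higher and 1 was lower (4.76%, against 5.45% higher and 6.8% lower over all loci). The lower locus in the affected group was the second of 2 listed for the insulator protein gene Ctcf with the same coordinates (-0.39 against control, where the first was at 0.17), so that the split of its reads is uncertain. Dnmt1, which copies methylation at each cell division, was at 28.8 FPKM in control samples, 25.3 in unaffected and 38.5 in affected samples. Tet3, which oxidises methylcytosine, was at 8.33, 7.004 and 11.3 FPKM, and Uhrf1, which guides DNMT1 to new DNA, at 15.1, 16.6 and 19.6. Dnmt3a, which places new methylation, was at 10.6, 9.86 and 13.3 FPKM. Zfp57 itself was at 42.0, 42.4 and 41.5 FPKM. Trim28, the corepressor that ZFP57 recruits and the most abundant of the list, was at 107, 102 and 125.

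A further list of 52 imprinted genes gave 50 in the table and 34 past the filter, 1 of them (Snurf) at the joined Snrpn locus. None passed the size counted in unaffected against control samples, 1 was higher and 5 were lower in affected against control samples (2.94% and 14.7%, against 12.1% and 11.3% of all loci), and 4 were higher and 5 lower in affected against unaffected samples (11.8% and 14.7%, against 20.3% and 18.1%), with medians of -0.04, 0.00 and 0.00. Commd1, a regulator of copper transport and of NF-kappaB, was at 86.0 FPKM in control samples, 91.8 in unaffected and 59.3 in affected samples. Th, the rate-limiting enzyme of dopamine synthesis, was at 1.73, 1.67 and 0.95 FPKM. Gab1, a scaffold of receptor signalling, was at 9.70, 8.96 and 12.7 FPKM, and Inpp5f, the most abundant outside that joined locus, at 140, 136 and 121.

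Markers of regions and cell types moved between the groups beside these results. Cortical markers summed to 913 FPKM in control samples, 837 in unaffected and 1053 in affected samples, and 7 of 11 were higher by the size counted in affected against control samples, against 12.1% of all loci. Ventral telencephalic markers summed to 165, 196 and 185 FPKM, and 3 of 9 (33.3%) were higher by the size counted in unaffected against control samples, against 5.45% of all loci. In affected against control samples 3 of 9 were higher too (33.3%, against 12.1% of all loci). Among these 9 markers Nkx2-1 was at 3.51, 5.67 and 3.69 FPKM and Gsx2 at 2.29, 3.32 and 3.19, highest in unaffected samples, while Dlx2 was at 33.1, 41.3 and 44.4 and Six3 at 7.75, 8.16 and 11.2, highest in affected samples. Hypothalamic markers summed to 5.04, 7.40 and 4.63 FPKM. Only 3 of the 11 hypothalamic loci passed the filter. Of these Pomc was at 0.91, 1.34 and 0.97 FPKM, Avp at 1.57, 2.13 and 0, and Fezf1 at 0.80, 1.72 and 1.74. Pomc and Avp reached the minimum only through the unaffected group, and the other 8 loci were under it. Neither a count nor the sum of this list is therefore read. Choroid plexus markers summed to 1012, 1337 and 1124 FPKM, nearly all of it Ttr. Erythroid markers summed to 458, 600 and 374 FPKM, with all 5 loci past the filter higher by the size counted in unaffected than in control samples, against 5.45% of all loci. Microglial markers summed to 51.0, 53.4 and 43.6, endothelial markers to 84.4, 83.4 and 86.3, markers of pericytes and mural cells to 70.6, 72.6 and 66.5, meningeal markers to 107, 99.1 and 94.2 and thalamic markers to 35.3, 31.4 and 32.2 FPKM. In affected against control samples 3 of 6 pericyte loci were higher and 1 lower (50% and 16.7%, against 12.1% and 11.3% of all loci). In affected against unaffected samples 4 of 8 endothelial loci were higher and none lower (50%, against 20.3% and 18.1%). The sums of these lists, carried by their most abundant genes, do not show this. The part of tissue makeup in the higher Asb4, Dlk1, Dio3 and Nnat of the unaffected group, and in the affected group's values, was not tested.

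**Figure D5:**
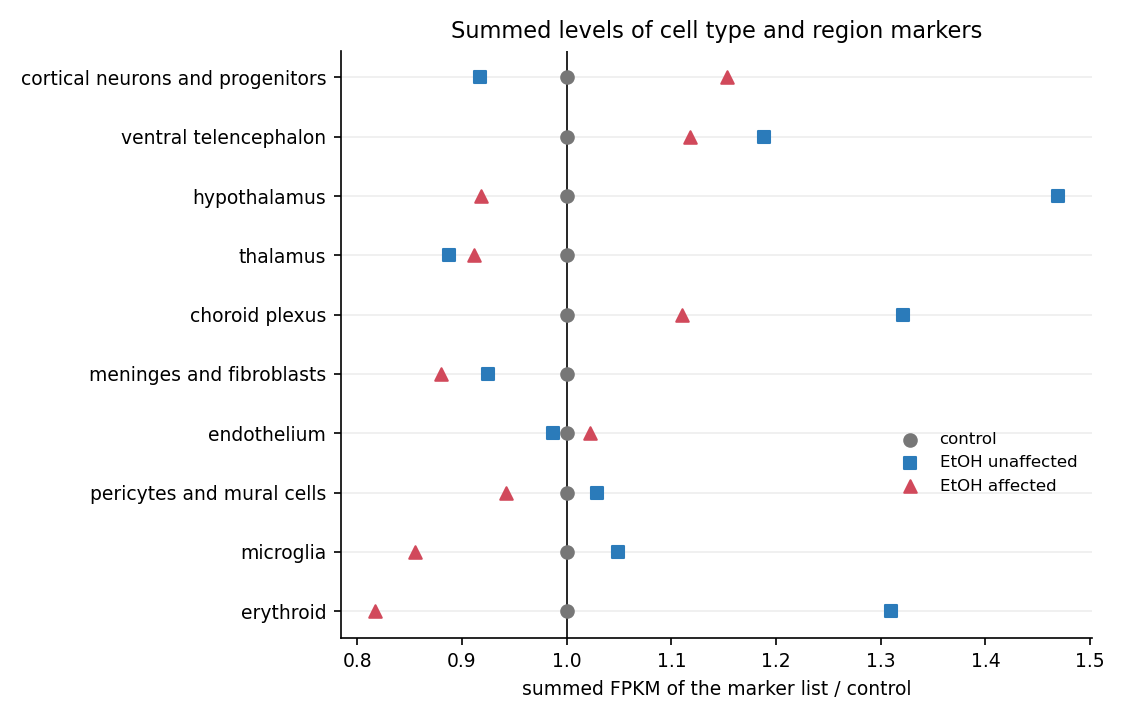
Summed FPKM of each marker list divided by its control sum, with grey circles for control, blue squares for EtOH unaffected and red triangles for EtOH affected samples. Choroid plexus and erythroid markers stand highest in unaffected samples, and cortical markers in affected samples (1053 against 913 FPKM). The hypothalamic sum (7.40 in unaffected against 5.04 FPKM in control samples) is not read, because Pomc and Avp reached the minimum only through the unaffected group.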

How the data were processed

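Total RNA was extracted from fetal brain and made into libraries with the TruSeq RNA kit. Per the labels, the tools were Bowtie2 (version 2.2.4.0), Cufflinks and Cuffdiff, with reads aligned to mm10; the study's methods also name STAR and TopHat. The authors deposited 1 FPKM value per locus and group, with 3 animals combined, so neither fragments per library nor spread between animals is known. The deposited fold changes, test statistics, p-values and q-values of the authors' own comparisons were not used. Locus starts were raised by 1 to browser coordinates. Loci with a mean of at least 1 FPKM were compared as log2(FPKM + 0.1), with differences of 0.32 or more counted (Python 3.11.15, pandas 2.3.3, numpy 2.4.6, scipy 1.17.1); the code was tested on simulated data. Alternatives were other pseudocounts, filters and folds, median centring, removal of a length trend (GENCODE M21, running median of 501 loci, lengths for 80.8% of loci) and leaving out loci. The length of a gene was the median over its annotated transcripts, and of a joined locus the longest of these. All 39 members are named; of other lists, the most abundant gene and up to 5 past that size. Zfp57, Peg12 and single marker genes were named after their values were seen. Members and lists were chosen with earlier results of these data known. RefSeq windows and miRNAs are of GRCm38.p6.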

Additional observations from a re-analysis of the deposited data

How the results depend on the processing

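No paired analysis was possible because the table holds 1 value per group and no test was made; for the same reason no animal could be left out. Of the 25 member differences of the size counted, none reversed under the alternatives run on them. Among smaller differences, removing the length trend turned the sign of Peg10 (0.13 to -0.20), Blcap (-0.22 to 0.02) and Mest (-0.05 to 0.10) in affected against unaffected samples and of the first Peg3 locus (0.12 to -0.04) in affected against control samples, among others. Centring on the median of all loci, a pseudocount of 0.01 FPKM and leaving out the second Peg3 locus changed no count. They moved no median or difference of the size counted by as much as 0.1 (log2). The largest such shift in a member median was without that Peg3 locus, from -0.06 to -0.11 in affected against unaffected samples. Under the other alternatives, counts are listed where they changed by more than 1.5-fold or from 0. In unaffected against control samples, the count of higher members (5) became 3 with a pseudocount of 1 FPKM, 8 with no filter, 0 at a mean of at least 5 FPKM, 2 at 1.5-fold, 10 at 1.1-fold and 3 without the Dlk1-Dio3 loci, and the count of lower members (0) became 5 at 1.1-fold. In affected against control samples, the higher count (4) became 1 at 1.5-fold and 12 at 1.1-fold, and the lower count (3) became 5 with no filter, 1 without loci that join several genes, 10 at 1.1-fold and 1 without the Dlk1-Dio3 loci. In affected against unaffected samples, the higher count (4) became 2 at a mean of at least 5 FPKM, 1 at 1.5-fold and 10 at 1.1-fold, and the lower count (9) became 5 at a mean of at least 5 FPKM, 3 at 1.5-fold, 16 at 1.1-fold and 5 without the Dlk1-Dio3 loci. There the maternal minus paternal gap in medians (0.07) became -0.11 with no filter, 0.27 with the length trend removed and 0.18 with tissue-dependent genes counted as maternal. The Dlk1-Dio3 alternative and the Peg3 one were chosen after seeing the data. Fewer loci or a larger fold make a smaller count by construction, and the cause of the other shifts was not tested. No share of all loci is given for these alternatives, so whether a changed count departs from that share cannot be read. Without Meg3 and Rian, 1 member (Nap1l5) was lower in affected against control samples, and transcripts under 5 FPKM supply every higher member in unaffected against control samples. The number of fragments behind a value is not known, and of the members under 1 FPKM Mirg alone is compared.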

Other observations

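Short neighbours of the members in the Dlk1-Dio3 domain had values in some groups and not in others. The joined locus of Dio3os, the RNA antisense to Dio3, and Mir1247 was at 0.14 FPKM in control, 0.34 in unaffected and 9.95 in affected samples, and Mir337, which lies between Meg3 and Rian, was listed at 0 in control and unaffected samples and at 4.27 FPKM in affected samples. Inside the Rian locus, AF357426 was at 35.2 FPKM in control samples and listed at 0 in the others. The small RNA genes AF357355 and DQ267102 there had a value in 1 group each, unaffected (23.2 FPKM) and affected (16.4 FPKM) samples. FPKM divides by transcript length, so a few fragments give a high value for genes this short, and the number of fragments is not known.

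The region between Ube3a and Mkrn3 on chromosome 7 held 29 loci past the filter with no gene name. Of these, 3 were higher and 13 lower by 0.32 or more (log2) in affected against control samples, with a median of -0.26, against 12.1% and 11.3% of all loci. Of the named paternally expressed genes there, Snrpn, Ndn, Mkrn3 and Ipw were lower by 0.19 to 0.28 and Magel2 was 0.18 higher. With the length trend removed Magel2 became 0.01 and Ndn -0.43. In unaffected against control samples 6 of the 29 were higher and 10 lower, with a median of -0.17, against 5.45% and 6.8% of all loci. Between affected and unaffected samples 6 were higher and 9 lower, against 20.3% and 18.1% of all loci.

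Across the 12568 loci past the filter that had a transcript length, the log2 difference went with length, with Spearman coefficients of -0.30 in unaffected against control, 0.30 in affected against control and 0.35 in affected against unaffected samples. Over the 33 members the coefficients were -0.08, 0.18 and 0.15. These are descriptions across loci of the same 3 group values, with no p.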
